A study of Mus musculus with 23 samples.

Results

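The 9 genes described here encode the main route by which mammalian cells degrade lysine: Aass, Crym, Pipox, Aldh7a1, Aadat, Dhtkd1, Dlst, Gcdh and Slc25a21. They were taken from the count table by symbol, and all 9 were found among its 24411 genes. Their counts were read in 23 RNA-seq libraries of mouse cortical astrocytes, isolated from adult cortex with magnetic beads against the astrocyte surface antigen ACSA-2. All mice, controls included, were labelled Aldh7a1 Flox/Flox males of postnatal day 70 and received 4-hydroxytamoxifen at postnatal days 3 to 4. ConAstro mice carried no Cre. cKOAstro mice carried Slc1a3-CreER/+, a tamoxifen-activated Cre recombinase fused to the estrogen receptor and placed in 1 allele of Slc1a3, the gene for the astrocyte glutamate transporter GLAST. Recombination was therefore directed to cells that expressed Slc1a3 in the first postnatal days, and these mice kept 1 intact Slc1a3 allele. From postnatal day 21 the food was either control chow or chow containing sulforaphane (SFN), a compound that activates NRF2. On control chow there were 4 ConAstro and 7 cKOAstro libraries, and on SFN chow 5 of ConAstro and 7 of cKOAstro mice.

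Lysine is broken down in mitochondria by the saccharopine route, in which the bifunctional enzyme AASS joins lysine to 2-oxoglutarate and cleaves the product to α-aminoadipic semialdehyde. A second route passes through pipecolate. There a ketimine reductase, CRYM, makes pipecolate from the cyclic ketimine of lysine, and the peroxisomal oxidase PIPOX oxidises it. Both routes meet at α-aminoadipic semialdehyde, which ALDH7A1 (antiquitin) oxidises to α-aminoadipate. AADAT transaminates this product to 2-oxoadipate, which the carrier SLC25A21 exchanges across the inner mitochondrial membrane. A dehydrogenase complex with DHTKD1 as its first and DLST as its second component forms glutaryl-CoA, and GCDH converts it to crotonyl-CoA. In people, loss of ALDH7A1 causes pyridoxine-dependent epilepsy and loss of GCDH causes glutaric aciduria.

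Counts per library summed to between 46890715 and 391701247. The whole Aldh7a1 gene lies on the minus strand of chromosome 18 (mm10, 56509687 to 56572951). The floxed exons 4 and 5 span 81 and 124 bases, together 205 of the 1914 bases (10.7%) of the 18-exon transcript in which they were defined. Without them the reading frame shifts and meets a stop in exon 6 after 116 codons, in place of 539. The deposited values are counts per gene, so reads from the deleted exons were not separated from reads of the rest of the transcript, and a shortened transcript that persists would still be counted. In these bulk samples, fewer cells of a type and less RNA per cell cannot be told apart.

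Aldh7a1 was lower in the cKOAstro libraries than in the ConAstro libraries on the control diet. The 4 ConAstro libraries had 222, 207, 213 and 217 CPM, which are counts scaled to one common library total. The 7 cKOAstro libraries ranged from 45.7 to 77.6 CPM, with a median of 54.3. The highest cKOAstro library lay far below the lowest ConAstro library, and the groups did not overlap. The log2 fold change was −1.86 ± 0.13 (SE), a ratio of 0.276 with a 95% confidence interval of 0.227 to 0.336 (edgeR's quasi-likelihood test over all genes, adjusted p = 6.94e-05). Of 17406 genes tested in this comparison, 4 passed the threshold of 0.05 (0.0230%), and Aldh7a1 was the only one of the 9 lysine genes among them. It was also the only one called by DESeq2, among 8 genes (0.0460%), and by limma-voom, among 4 (0.0230%). In the alternative fits the log2 fold change stayed between −1.80 and −1.97, but the adjusted p rose to 0.371 with all 4 groups in 1 fit and to 0.152 with the replicate number as a block.

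On the SFN diet 2 libraries had Aldh7a1 levels opposite to their genotype label. The 5 SFN-fed ConAstro libraries had 55.4, 177, 220.4, 224 and 202 CPM for replicates 1 to 5. The 7 SFN-fed cKOAstro libraries ranged from 42.9 to 220.4 CPM, with a median of 49.5, and replicate 2 was the highest. The library labelled SFN-fed ConAstro replicate 1 thus stood among the cKOAstro values, while replicate 2 of the libraries labelled SFN-fed cKOAstro had a ConAstro value.

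A pair of genes that mark the CreER allele moved the same way. Slc1a3, of which the CreER allele replaces 1 copy, had 2090.2 CPM in SFN-fed ConAstro replicate 1, and the other 4 libraries of that group had between 4167 and 5630.4. It had 4406 CPM in SFN-fed cKOAstro replicate 2, and the other 6 had between 1598 and 2765. Esr1, the gene of the estrogen receptor that the CreER fusion is built from, had 19.9 CPM in SFN-fed ConAstro replicate 1 against 1.14 to 1.73 in the other 4. It had 0.529 CPM in SFN-fed cKOAstro replicate 2 against 17.2 to 24.3 in the other 6. Both libraries were kept under their labels, and the tests on the 9 genes that use them are also given without them. In addition, cKOAstro replicate 2, labelled male, had 1532 CPM of Xist, the RNA of the inactive X chromosome, and 0.00765 CPM of the Y-linked Ddx3y, where the other 22 libraries had at most 0.706 and at least 83.4 CPM. Its Aldh7a1, at 64.5 CPM, was within the range of its group. Xist and Ddx3y were looked at after values had been seen.

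**Figure D1:**
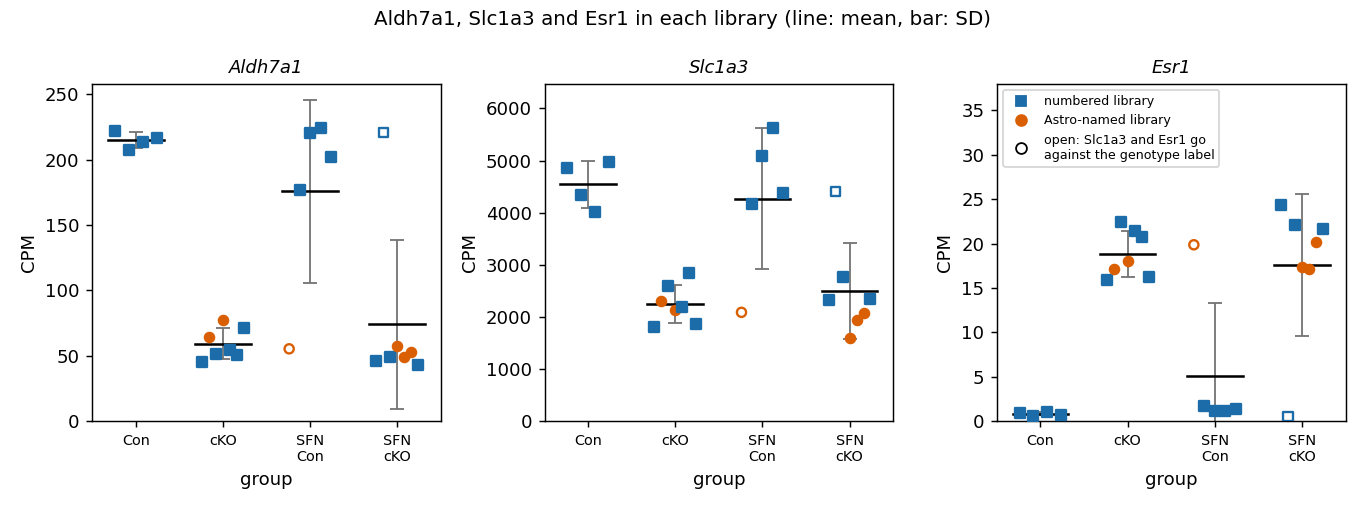
CPM of Aldh7a1, Slc1a3 and Esr1 in each of the 23 libraries, by group, with the mean as a line and the SD as a bar. The open symbols are SFN-fed ConAstro replicate 1, at 55.4 CPM of Aldh7a1, and SFN-fed cKOAstro replicate 2, at 220.4 CPM, which lie among the values of the other genotype in all 3 genes.

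With all libraries as labelled, the genotype difference in Aldh7a1 on the SFN diet was −1.25 ± 0.45 on the log2 scale and did not pass the threshold (edgeR adjusted p = 0.195). Of 16672 genes tested, none passed (0%), while 3377 (20.3%) had an unadjusted p under 0.05. The number called was 341 (2.05%) by DESeq2 and 4398 (26.4%) by weighted limma-voom, in which libraries that stand apart count less, and neither called Aldh7a1. Without the 2 libraries the difference was −2.05 ± 0.10 (edgeR adjusted p = 3.55e-06), a ratio of 0.242 with a 95% interval of 0.208 to 0.281. The 6 remaining SFN-fed cKOAstro libraries had 49.8 CPM ± 5.20 (SD) and the 4 remaining SFN-fed ConAstro libraries 206 ± 21.6, and these did not overlap. The 2 libraries were those with Aldh7a1 levels opposite to their label, so their exclusion fixed this separation in advance. In every comparison, Aldh7a1 values without them are therefore no independent test of this gene. Without the 2 libraries, 2 of 16705 genes passed (0.0120%), namely Aldh7a1 and Esr1. In Esr1 the 2 libraries were also opposite to their label, as given above, so its separation was fixed in the same way.

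Over both diets, with diet as a term, the genotype difference in Aldh7a1 was −1.53 ± 0.26 (edgeR adjusted p = 0.0895, 0 of 17302 genes called, 0%, and 3572 genes at an unadjusted p under 0.05), and −1.95 ± 0.09 without the 2 libraries (adjusted p = 2.33e-12, 5 of 17264 genes called, 0.0290%). SFN-fed cKOAstro against ConAstro gave −1.54 ± 0.42 (adjusted p = 0.557, 0 of 16753 genes called, 0%, 1453 unadjusted) and −2.10 ± 0.08 without SFN-fed cKOAstro replicate 2 (adjusted p = 6.58e-07, 2 of 16623 called, 0.0120%). In this last comparison the controls are the ConAstro libraries used above. Without the discordant libraries, Aldh7a1 and Esr1 were among the 5 genes called over both diets and were the 2 called here. DESeq2 called Aldh7a1 in both of these comparisons with all libraries under their labels, with 66 (0.381%) and 8 (0.0478%) genes called in all. Weighted limma-voom called it in the second of them, with 656 genes (3.92%), and called 0 genes in the first. DESeq2 ran with its default replacement of outlying counts, so the count of SFN-fed cKOAstro replicate 2 may not have entered unchanged. The part of this replacement in the DESeq2 calls was not tested.

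The SFN diet did not change Aldh7a1 by a test in either genotype. In ConAstro the difference of the SFN diet from the control diet was −0.29 ± 0.32 on the log2 scale (edgeR adjusted p = 0.886), and −0.06 ± 0.08 without SFN-fed ConAstro replicate 1, with a 95% interval of the ratio from 0.850 to 1.08. In cKOAstro it was 0.33 ± 0.34 (adjusted p = 0.71) and turned to −0.25 ± 0.12 without SFN-fed cKOAstro replicate 2 (adjusted p = 0.662), with a ratio between 0.702 and 1.01. The genotype by diet interaction was 0.61 ± 0.53 (adjusted p = 0.785) and −0.19 ± 0.17 without the 2 libraries (adjusted p = 0.776). No gene was called in these 3 comparisons by edgeR (0% each), with 1079, 1839 and 1267 genes at an unadjusted p under 0.05. DESeq2 called 23 (0.139%), 10 (0.0592%) and 3 (0.0173%) genes and weighted limma-voom none, and none of the 9 genes was among these calls.

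The bead-isolated fractions held RNA of other cell types. All 7 astrocyte markers were expressed in every library, and their summed level ranged from 10636 to 20918 CPM. Among oligodendrocyte markers, Mbp, which encodes myelin basic protein, ranged from 2575 to 5757 CPM, and Mag, which encodes myelin-associated glycoprotein, from 1535 to 4191. The 5 microglial markers summed to between 179.8 and 2060.3 CPM and the 6 neuronal markers to between 102 and 729.6. The 3 oligodendrocyte precursor markers ranged from 75.6 to 279.7 CPM, the 4 endothelial from 116 to 456, the 4 mural from 613 to 1733, the 4 fibroblast from 69.3 to 152 and the 4 ependymal from 118 to 532. The 4 haemoglobin genes were listed at 0 in every library. The part of these cells in the Aldh7a1 level left in cKOAstro libraries was not tested.

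Among the 9 genes, levels were compared per kilobase of exon in the 4 ConAstro libraries, where no member was targeted. Aldh7a1 was the highest, at 41.5 CPM per kilobase ± 1.19 (SD, n = 4). Gcdh (14.1 ± 0.448) and Dlst (13.4 ± 0.589) came next and overlapped. Aass (6.27 ± 0.272) and Crym (5.11 ± 2.08) followed and overlapped, as did Dhtkd1 (2.52 ± 0.412) and Pipox (2.20 ± 0.365). Slc25a21 had 0.708 ± 0.0878, and Aadat was lowest at 0.0786 ± 0.0505. In cKOAstro libraries Aldh7a1 had 11.5 CPM per kilobase ± 2.31 (n = 7), with a range of 8.82 to 14.98. The order depends on the length used for Dlst: over its longest transcript in place of all its exons it had 39.7 CPM per kilobase in ConAstro, second to Aldh7a1 at 52.0.

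**Figure D2:**
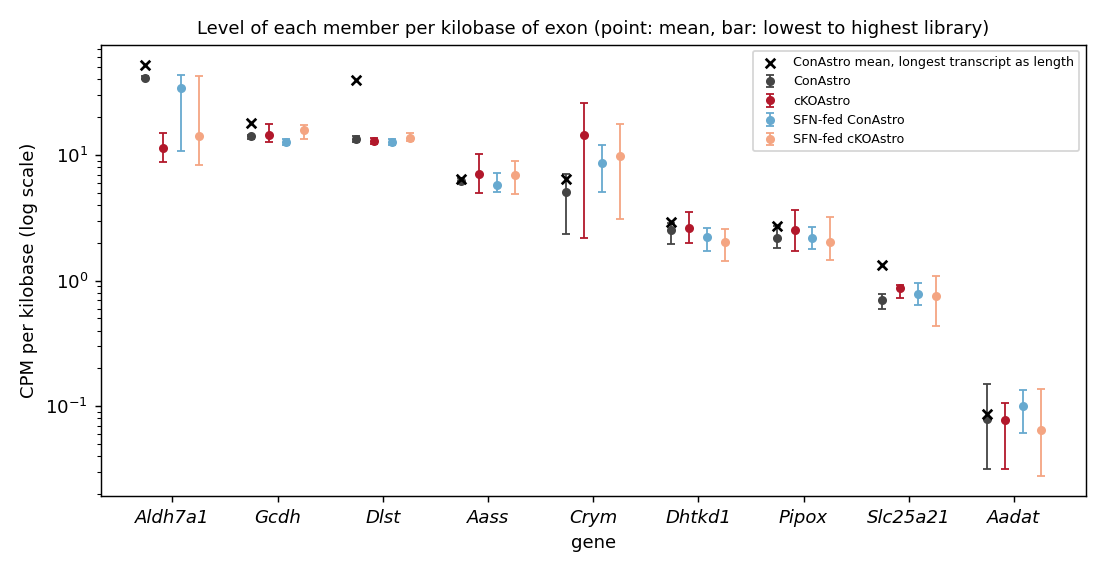
CPM per kilobase of exon for each gene on a log scale, by group, with points for means and bars from the lowest to the highest library; crosses give the ConAstro means with the longest transcript as length. Aldh7a1 leads in ConAstro at 41.5 CPM per kilobase and Aadat is lowest at 0.0786, while Dlst moves from 13.4 to 39.7 with the choice of length.

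Aadat was thus close to undetected in these cells. Its counts ranged from 6 to 65 per library, against 2608 to 48582 for Aldh7a1. Aadat values carry a large counting error and small differences in this gene were not detectable at this depth: the 95% interval of its cKOAstro to ConAstro ratio on the control diet ran from 0.510 to 1.88.

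The entry step, Aass (mm10, chromosome 6, 23072173 to 23132986, minus strand), did not pass the edgeR threshold in any comparison. In ConAstro it had 22.8, 23.3, 24.5 and 25.0 CPM. The 7 cKOAstro libraries ranged from 19.1 to 39.3 CPM with a median of 24.5, and so reached below and above all ConAstro libraries. The log2 difference was 0.18 ± 0.18 (edgeR adjusted p = 0.981). The highest cKOAstro library, at 39.3 CPM, was replicate 2, whose Xist and Ddx3y go against its male label. Replicate 4 was next, at 34.6 CPM, and both had library names that begin with Astro. Such names were given to 6 of the 23 libraries (cKOAstro replicates 2 and 4, SFN-fed ConAstro replicate 1, SFN-fed cKOAstro replicates 4 to 6), and the other 17 have numbers. Among the numbered libraries alone the Aass difference was −0.03 ± 0.11. On the SFN diet it was 0.26 ± 0.15 (edgeR adjusted p = 0.317), which passed the threshold with weighted limma-voom (0.39 ± 0.13, adjusted p = 0.0404), a fit that called 26.4% of all genes, and was 0.16 ± 0.15 without the 2 libraries. What the library names stand for is not given in the sources used here.

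In the pipecolate route, Crym (chromosome 7, 120186380 to 120202111, minus strand) varied more between libraries than any of the other 8 genes, with its highest library 11.9 times its lowest. Crym encodes μ-crystallin, which also binds thyroid hormone and is known as a marker of striatal astrocytes. ConAstro libraries had 23.9, 21.4, 15.9 and 8.001 CPM. The 7 cKOAstro libraries ranged from 7.41 to 88.4 CPM, with a median of 54.5. In all, 5 of the 7 were above all ConAstro libraries, and replicate 3 was below all of them. The log2 difference was 1.496 ± 0.577 (ratio 2.82, 95% interval 1.18 to 6.75), with an unadjusted p of 0.0238 and an edgeR adjusted p of 0.981, and so did not pass the threshold. For comparison, 651 of the 17406 genes (3.74%) had an unadjusted p under 0.05, and 3 of the 9 members did.

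Within cKOAstro on the control diet, the spread of Crym followed the library names, in small sets of libraries. The 3 libraries that share one name prefix had 67.7 CPM ± 18.1 (SD), the 2 with Astro names 71.9 and 42.2, and the 2 with another prefix had 7.41 and 17.01. All 4 ConAstro libraries carried a further prefix, so that on the control diet name prefix and genotype cannot be told apart. On the SFN diet SFN-fed ConAstro libraries ranged from 17.3 to 40.5 CPM and SFN-fed cKOAstro libraries from 10.53 to 60.4, and the groups overlapped. The lowest and the highest SFN-fed cKOAstro library shared one name prefix, so the names did not order Crym there. The genotype difference on the SFN diet was 0.19 ± 0.38 and turned to −0.04 ± 0.40 without the 2 libraries. Crym differed by 0.76 ± 0.33 between SFN-fed ConAstro and ConAstro (unadjusted p = 0.0447, edgeR adjusted p = 0.762) and by −0.53 ± 0.48 between SFN-fed cKOAstro and cKOAstro (adjusted p = 0.657). The interaction was −1.30 ± 0.70 (adjusted p = 0.68). Without the 2 libraries these became 0.78 ± 0.37 (unadjusted p = 0.0631), −0.74 ± 0.49 and −1.53 ± 0.74 (edgeR adjusted p = 0.608, 0.677 and 0.597).

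Pipox, the oxidase after Crym, stayed between 3.59 and 9.06 CPM over all libraries. Its groups overlapped, with 5.44 CPM ± 0.902 in ConAstro (SD, n = 4) and 6.21 ± 1.90 in cKOAstro (n = 7). The genotype difference was 0.19 ± 0.22 without SFN and −0.10 ± 0.19 with it (edgeR adjusted p = 0.981 and 0.771), and with SFN −0.12 ± 0.23 without the 2 libraries. Its 95% interval allows a ratio of 0.818 to 1.59 on the control diet.

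**Figure D3:**
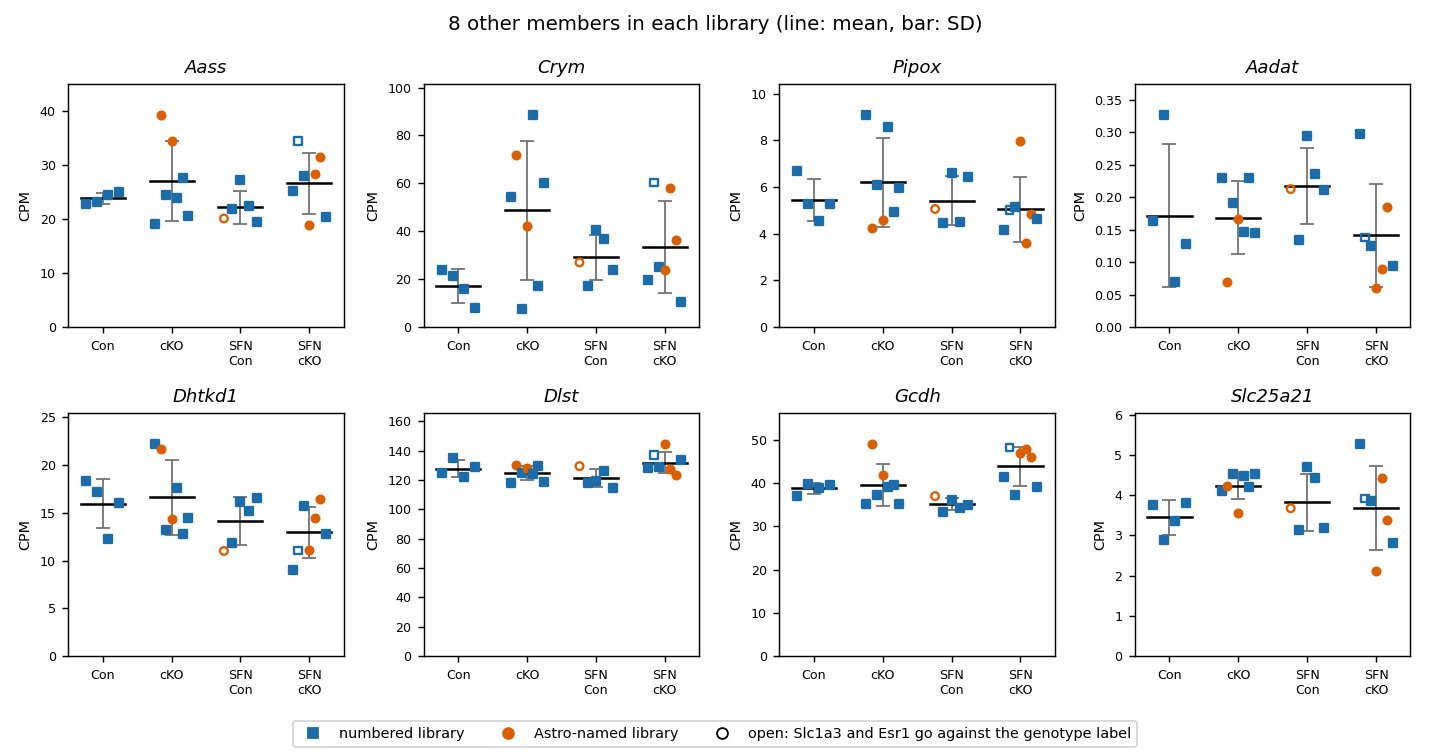
CPM of the 8 genes other than Aldh7a1 in each library, by group, with mean and SD, coloured by library name; open symbols mark the 2 libraries whose Slc1a3 and Esr1 go against their label. Crym spreads from 7.41 to 88.4 CPM within cKOAstro. By label, the 7 SFN-fed cKOAstro libraries of Gcdh lie above the 5 SFN-fed ConAstro libraries, but not if the 2 open symbols are placed by Slc1a3 and Esr1.

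Of the steps below α-aminoadipate, Gcdh (chromosome 8, 84886393 to 84893921, minus strand) separated the labelled genotypes on the SFN diet but did not pass the edgeR threshold. SFN-fed ConAstro libraries had 37.0, 33.4, 36.2, 34.2 and 35.0 CPM. SFN-fed cKOAstro libraries had 41.4, 48.2, 37.3, 46.98, 47.9, 45.9 and 39.0 CPM. By label, all 7 were above all 5 SFN-fed ConAstro libraries, although the lowest of them exceeded the highest of the other group by little. In Gcdh, the 2 libraries whose Slc1a3 and Esr1 go against their label lay with their labelled groups. SFN-fed cKOAstro replicate 2 was the highest of its group, and SFN-fed ConAstro replicate 1 was below all SFN-fed cKOAstro libraries. If these 2 libraries are placed by their Slc1a3 and Esr1 instead, the groups overlap, with a library at 48.2 CPM on the side without Cre. The share of all genes whose labelled groups separate without overlap was not counted in any comparison. The log2 difference was 0.32 ± 0.07 (ratio 1.25, 95% interval 1.12 to 1.39). Its unadjusted p was 0.000821 and its edgeR adjusted p 0.195, in a comparison in which 20.3% of all genes had an unadjusted p under 0.05. DESeq2, with 2.05% of all genes called, gave an adjusted p of 0.0222 and weighted limma-voom, with 26.4% called, 0.0108, and edgeR 0.0317 without SFN-fed cKOAstro replicate 3. That replicate was the lowest of its group, at 37.3 CPM. Of 22 alternative settings only these 3 called Gcdh, and the fit without the 2 libraries did not.

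On the control diet Gcdh had 37.0, 39.7, 38.9 and 39.5 CPM in ConAstro and ranged from 35.0 to 48.9 in cKOAstro, with a median of 39.1. The library at 48.9 CPM was cKOAstro replicate 2, whose Xist and Ddx3y go against its male label. The groups overlapped, and the log2 difference was below its SE. The 5 SFN-fed ConAstro libraries were also all below the 4 ConAstro libraries, although the nearest pair both rounded to 37.0 CPM. That difference was −0.14 ± 0.05 (unadjusted p = 0.0185, edgeR adjusted p = 0.762), where 6.54% of all genes had an unadjusted p under 0.05. In cKOAstro the SFN diet gave 0.16 ± 0.09 (adjusted p = 0.501). The interaction was 0.29 ± 0.11 (unadjusted p = 0.0189, adjusted p = 0.673), and the genotype difference over both diets was 0.18 ± 0.06 (unadjusted p = 0.00751, adjusted p = 0.159). Without the 2 libraries the diet differences were −0.16 ± 0.05 in ConAstro and 0.13 ± 0.09 in cKOAstro, the interaction 0.29 ± 0.12 and the genotype difference over both diets 0.16 ± 0.07 (edgeR adjusted p = 0.558, 0.689, 0.576 and 0.298). These comparisons share libraries, so their values are not independent of each other.

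Within the cKOAstro and SFN-fed cKOAstro groups the Gcdh level also moved with the library names. The 5 Astro-named libraries of the cKOAstro and SFN-fed cKOAstro groups had 46.3 CPM ± 2.79 (SD), and the 8 numbered libraries of these groups, without SFN-fed cKOAstro replicate 2, had 37.96 ± 2.19. The remaining Astro-named library, SFN-fed ConAstro replicate 1, had 36.95 CPM, inside the range of the numbered libraries. Over all groups the 6 Astro-named libraries had 44.7 ± 4.56 and the 17 numbered ones 37.98 ± 3.48. With the name series as a term, the genotype difference on the SFN diet was 0.28 ± 0.07. Among numbered libraries without the 2 discordant ones it was 0.18 ± 0.07 (edgeR adjusted p = 0.576). The highest numbered library, at 48.2 CPM, was SFN-fed cKOAstro replicate 2, whose Slc1a3 and Esr1 go against its label. The genotype difference on the SFN diet without the 2 libraries was 0.31 ± 0.08 (adjusted p = 0.31).

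All members other than Aldh7a1 were compared with the cell type markers because these fractions were mixed. Gcdh is described here because, with the oligodendrocyte precursor markers, it formed the only pair called. Over the 23 libraries, as deviations from group means, its log2 CPM fell as the log2 summed CPM of the oligodendrocyte precursor markers rose (Pearson's r = −0.69, permutation p = 4e-05, adjusted p = 0.00288; Spearman's rho = −0.74, permutation p = 8e-05, adjusted p = 0.00576; 72 pairs of a gene and a list tested). Without the 2 libraries farthest from the median of that list r was −0.78. Within the 17 numbered libraries r was −0.64 (permutation p = 0.0148, adjusted p = 0.778), so that the call was lost there. Without the 2 discordant libraries r was −0.66 (permutation p = 0.00017, adjusted p = 0.0122), while rho, at −0.71, had an adjusted permutation p of 0.0706. The next relations, Gcdh with microglial markers (r = −0.68) and with mural markers (r = −0.60), both had an adjusted permutation p of 0.132. The precursor markers summed to 220.4 CPM ± 58.3 (SD, n = 5) in SFN-fed ConAstro and 137 ± 54.5 (n = 7) in SFN-fed cKOAstro, and microglial markers to 1228 ± 469 and 782 ± 828. The part of these cells in the Gcdh difference was not tested.

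**Figure D4:**
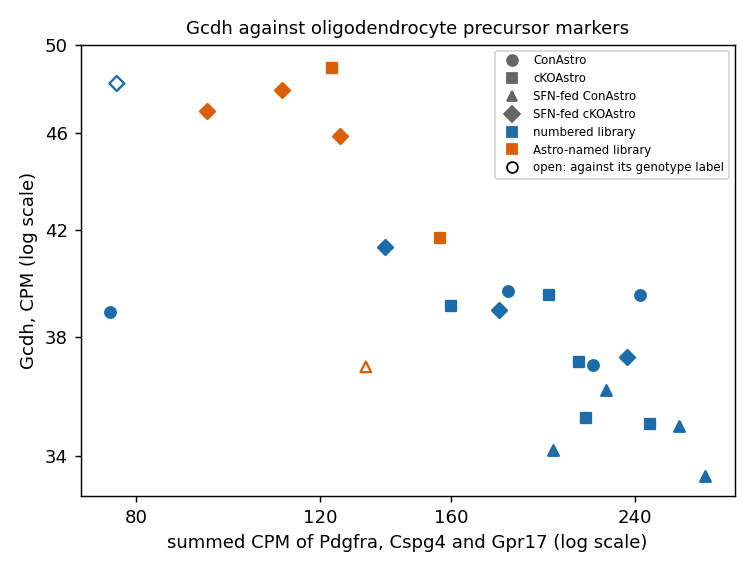
Gcdh in CPM against the summed CPM of Pdgfra, Cspg4 and Gpr17, markers of oligodendrocyte precursors, both on log scales, with 1 point per library; shape gives the group and colour the library name. Libraries with fewer precursor transcripts tend to have more Gcdh, with r = −0.69 after group means are removed. Astro-named libraries lie toward the upper left, except cKOAstro replicate 4 near the middle and SFN-fed ConAstro replicate 1 lower down.

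The 2-oxoadipate dehydrogenase genes differed little. Dlst, whose protein also serves the 2-oxoglutarate dehydrogenase complex of the citric acid cycle, had the smallest spread of the 9, with 115 to 144 CPM over all libraries and a highest library 1.26 times the lowest. On the control diet it had 128 CPM ± 5.63 (SD, n = 4) in ConAstro against 125 ± 4.84 (n = 7) in cKOAstro. With SFN the values were 122 ± 6.08 (n = 5) for ConAstro against 132 ± 7.13 (n = 7) for cKOAstro. The genotype difference on the SFN diet was 0.12 ± 0.06 (edgeR adjusted p = 0.276), and the interaction 0.15 ± 0.07 (unadjusted p = 0.0479, adjusted p = 0.674). With the 2 libraries left out they were 0.13 ± 0.07 and 0.16 ± 0.07 (edgeR adjusted p = 0.369 and 0.581). Its 95% interval on the control diet was narrow, from a ratio of 0.909 to 1.05.

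Dhtkd1, the component specific to 2-oxoadipate, had 16.0 CPM ± 2.61 in ConAstro and 16.6 ± 3.95 in cKOAstro. Its SFN-fed groups had 14.1 ± 2.53 in ConAstro and 12.9 ± 2.72 in cKOAstro, and the groups overlapped. The diet difference was −0.35 ± 0.16 in cKOAstro (unadjusted p = 0.0474, edgeR adjusted p = 0.459), −0.17 ± 0.15 in ConAstro (adjusted p = 0.872) and −0.28 ± 0.12 over both genotypes (unadjusted p = 0.0272, adjusted p = 0.582). Leaving out the 2 libraries gave −0.32 ± 0.17 (unadjusted p = 0.0871), −0.10 ± 0.15 and −0.24 ± 0.12 (unadjusted p = 0.0689), with edgeR adjusted p-values of 0.662, 0.883 and 0.921. In the comparison over both genotypes 8.33% of all genes had an unadjusted p under 0.05 and none passed the threshold (0%), with DESeq2 and limma-voom at 0 calls as well.

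The carrier Slc25a21 (chromosome 12, 56712634 to 57197472, minus strand) had 3.76, 2.88, 3.37 and 3.80 CPM in ConAstro and 3.56 to 4.53 in cKOAstro, with a median of 4.22. All cKOAstro libraries but replicate 4, 6 of 7, were above all ConAstro libraries. The log2 difference was 0.30 ± 0.11 (ratio 1.23, 95% interval 1.04 to 1.46), with an unadjusted p of 0.0218 and an edgeR adjusted p of 0.981. In this comparison 3.74% of all genes had an unadjusted p under 0.05. The share of all genes with libraries set apart to this degree was not counted. On the SFN diet the groups overlapped, from 3.14 to 4.69 CPM in SFN-fed ConAstro and from 2.11 to 5.27 in SFN-fed cKOAstro. Slc25a21 shares 3.88% of its exon bases with Pax9 on the opposite strand, Dhtkd1 1.89% with Gm13267, and Aldh7a1 9.19% with Phax and 2 further genes. Whether counting used the strand is not given in the sources used here, so reads of these stretches cannot be assigned to a gene.

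**Figure D5:**
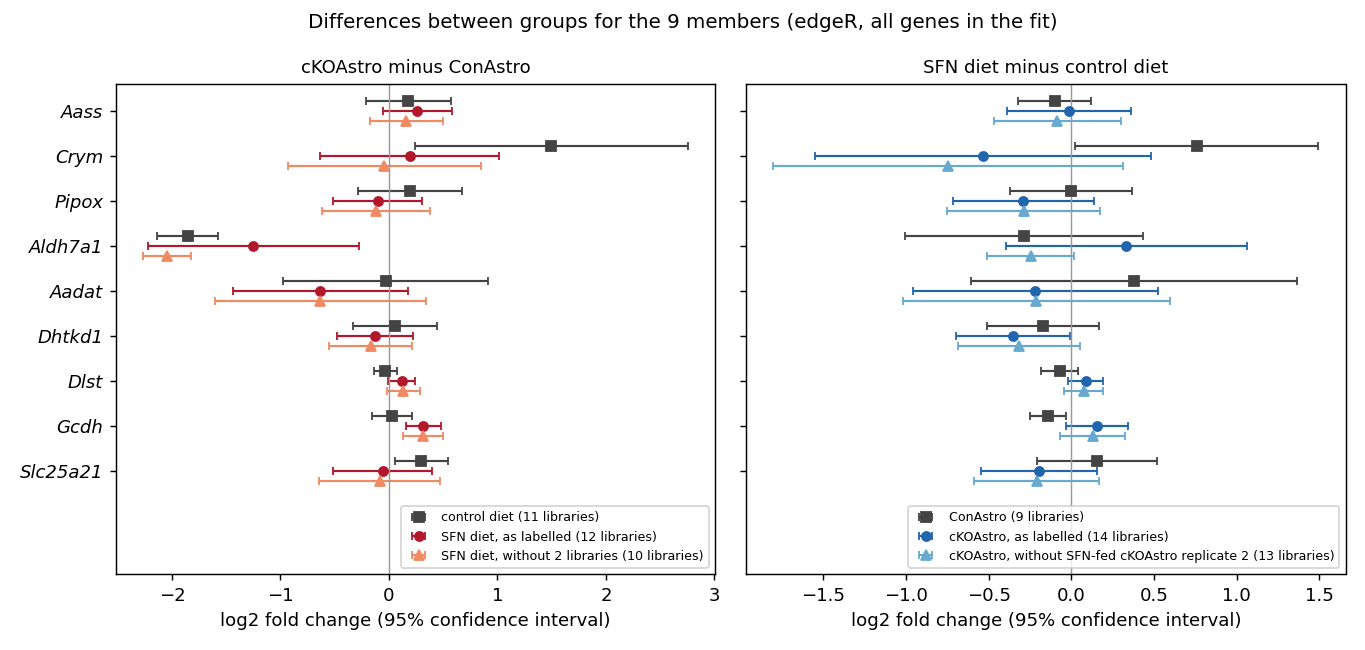
Log2 fold changes of the 9 genes with 95% confidence intervals, for genotype within each diet on the left and for diet within each genotype on the right, with all libraries as labelled and without the discordant ones. Aldh7a1 lies at −1.86 with control food and −2.05 with SFN food once the 2 libraries are left out, with narrow intervals, while Crym lies at 1.496 with control food with a wide one (0.24 to 2.76).

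Wider lists of lysine metabolism gave no call with the main test. Of 31 listed genes 30 were tested in each comparison, and 0 passed the threshold in any of the 8 comparisons with edgeR, also without the 2 libraries. On the control diet 1 of the 30 (3.33%) had an unadjusted p under 0.05, against 3.74% of all genes, and on the SFN diet 9 (30%) against 20.3%. In that SFN-diet comparison weighted limma-voom called 9 of the 30 (among them Ccbl1, Ccbl2, Etfb, Lias, Prodh and Slc25a29, higher in SFN-fed cKOAstro, and Slc7a1, lower), a share near the 26.4% of all genes it called. DESeq2 called 1 of the 30 against 2.05% of all genes, namely Lias, the lipoic acid synthase that makes the cofactor of DLST. In SFN-fed cKOAstro against ConAstro weighted limma-voom called Lias and Slc25a29, 2 of 30 against 3.92% of all genes. Over both diets DESeq2 called Lias, 1 of 30 against 0.381%. The median log2 difference between genotypes on the SFN diet was 0.10 for the 30 genes and 0.01 for all genes. Partners of DLST were led by Ogdh, the first component of the 2-oxoglutarate complex (42.7 CPM per kilobase, mean of 23 libraries), and Dld, the dehydrogenase component shared with other such complexes (25.1). Their genotype differences on the SFN diet were −0.03 ± 0.06 and 0.08 ± 0.07, and −0.05 ± 0.08 and 0.10 ± 0.08 without the 2 libraries.

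Below glutaryl-CoA the highest genes were Etfb (71.1 CPM per kilobase) and Etfa (42.3), the subunits of the flavoprotein that takes electrons from GCDH. They differed between genotypes by 0.30 ± 0.11 and 0.16 ± 0.08 on the SFN diet (edgeR adjusted p = 0.198 and 0.277) and by 0.02 ± 0.08 and 0.12 ± 0.07 on the control diet. Among amino acid transporters Slc3a2 (121 CPM per kilobase) and Slc7a5 (36.9) led, with 0.12 ± 0.08 and −0.10 ± 0.21 on the SFN diet. Ccbl1 (8.83 CPM per kilobase) and Ccbl2 (1.63), aminotransferases now named Kyat1 and Kyat3, gave 0.29 ± 0.09 and 0.26 ± 0.11 (edgeR adjusted p = 0.195 and 0.225). Of the proline enzymes, whose aldehyde dehydrogenase is a relative of ALDH7A1, Oat (76.3 CPM per kilobase) gave −0.01 ± 0.10 and Prodh (30.0) gave 0.50 ± 0.16 (adjusted p = 0.967 and 0.195). When the 2 libraries were left out, the genotype differences on the SFN diet were 0.33 ± 0.13 for Etfb, 0.16 ± 0.10 for Etfa, 0.11 ± 0.10 for Slc3a2 and −0.10 ± 0.25 for Slc7a5. Those of Ccbl1, Ccbl2, Oat and Prodh were 0.28 ± 0.10, 0.19 ± 0.12, −0.04 ± 0.12 and 0.46 ± 0.18, and none of these 8 passed the edgeR threshold.

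The genes whose log2 CPM followed each member most closely over the 23 libraries were taken from 14181 genes with a mean of at least 1 CPM, as a description with no test. For Aldh7a1 the closest were Slc1a3, AI987944 and Cntn1, and the most opposite Esr1, Gm5577 and Rrs1; no pooled correlation is given, since its libraries fell into a low and a high cluster. Gcdh was closest to Nudt22 (r = 0.94), Bcat2, the mitochondrial aminotransferase of branched-chain amino acids (0.93), and Ap5s1 (0.93). Aass was closest to Gpr162 (0.91), Acot11 (0.90) and the circadian factor Npas2 (0.89). Dhtkd1 was closest to the circadian gene Per3 (0.89), Syne1 (0.88) and Mtx3 (0.88).

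For Dlst the closest genes were Immt, a mitochondrial inner membrane organiser (r = 0.85), Bpnt1 (0.83) and Dcaf11 (0.81). Crym followed Acsm5 (0.82), Ecel1 (0.78) and Six3, a forebrain homeobox gene (0.78). Slc25a21 followed Clip4 (0.81), Ece2 (0.80) and Irak1bp1 (0.78), Pipox followed A930017M01Rik (0.83), Hnrnpdl (0.76) and 3110039I08Rik (0.76), and Aadat followed Slc5a5 (0.66), Zxdb (0.65) and 5930412G12Rik (0.63). Libraries share groups and name series, which these correlations contain. Among the members themselves the highest correlations were Gcdh with Dlst (r = 0.64) and Gcdh with Aass (0.63).

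Since the SFN diet was given as an activator of NRF2, the promoters of the members were searched for the core letters of the antioxidant response element, TGACNNNGC, on both strands, from 250 bases before to 50 bases after each start. RefSeq (GRCm38.p6) gave 8 promoters for 7 of the 9 genes, without Aldh7a1 and Crym. Only the Dlst promoter held a match, 132 bases before the start (chr12:85110691-85110719, plus strand), shown here with the match in capitals and 10 bases on each side:
Dlst: ggccttctctTGACAGCGCcacagatgcc
Of all 32851 promoters 12.4% held such a match. Between diets the Dlst level did not pass the threshold in ConAstro or in cKOAstro (edgeR adjusted p = 0.845 and 0.513).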

How the data were processed

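Polyadenylated RNA of 23 mouse libraries was sequenced in pairs on an Illumina NovaSeq. The authors checked reads with FastQC, aligned them to mm10 with STAR and deposited raw counts per gene symbol; versions, annotation and strand setting are not given in the sources used here. Groups follow the labelled genotype and diet. Counts were tested with edgeR 4.0.16 in R 4.3.3 (quasi-likelihood test, TMM, filterByExpr with a minimum count of 10 and a minimum total of 15), 2 groups at a time, with Benjamini-Hochberg adjustment over all genes and a threshold of 0.05. All 9 members passed the filter in all 8 comparisons. The interaction and the models of genotype plus diet used all 23 libraries. DESeq2 1.42.0, which the study used, and limma 3.58.1 (voom with sample quality weights) were alternatives, with others listed in the closing section. CPM were scaled with TMM factors of all 23 libraries. Exon lengths came from GENCODE M21 (23376 of 24411 symbols matched; 3 listed genes matched by older symbol). Correlation p-values came from 100000 permutations within groups. Scripts were tested on simulated counts. Within groups, any pair of libraries differed by a chi-square of at least 42.4 per degree of freedom, so no library was counted as a repeat of another. The study states its n for RNA-seq in animals, and no source used here mentions pooling of mice in these libraries. The p-values measure the spread between libraries. Named were the members, the 2 highest genes per kilobase of each wider list, most wider-list genes called by any of the 3 tools, and the 3 closest genes to each member. The members and lists were chosen with earlier results of these data known. The level of 1 oligodendrocyte marker, the summed level of its list and some wider-list genes are not reported here.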

Additional observations from a re-analysis of the deposited data

Results flagged for a closer look

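In 36 sets of one gene in one group of 4 to 7 libraries, 4 libraries lay far from the others by Dixon's criterion, which chance gives in about 1 of 20 sets. Aldh7a1 stood out in SFN-fed ConAstro replicate 1, at 55.4 CPM against 177 to 224 in the other 4 libraries. Aldh7a1 stood out in SFN-fed cKOAstro replicate 2, at 220.4 CPM against 42.9 to 57.9 in the other 6 libraries. Pipox stood out in SFN-fed cKOAstro replicate 4, at 7.96 CPM. Slc25a21 stood out in cKOAstro replicate 4, at 3.56 CPM. Both of the latter are Astro-named libraries, and the part of the library names in these values was not tested.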

How the results depend on the processing

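On the control diet the number of the 9 genes called, 1 in the fit reported, was 0 with all 4 groups in 1 fit and 0 with a replicate block (Aldh7a1 adjusted p = 0.371 and 0.152), and leaving out single libraries changed no call. On the SFN diet it was 0 as reported, 1 with DESeq2, 2 with weighted limma-voom, 1 without the 2 libraries whose Slc1a3 and Esr1 go against their label, and 1 among numbered libraries without them; leaving out single libraries gave 0 to 1. For SFN-fed cKOAstro against ConAstro it was 0 as reported and 1 under DESeq2, limma-voom and both of these exclusions, and over both diets 1 under DESeq2 and both exclusions, each 0 to 1 with single libraries left out. The restriction to numbered libraries without the 2 was chosen after seeing the data. The cause of these changes was not tested. Signs turned for Aass on the control diet, from 0.18 to −0.0472 with name series as a covariate and −0.0338 among numbered libraries. Crym on the SFN diet turned from 0.19 to −0.0365 among numbered libraries, −0.0420 without the 2 libraries and −0.68 with both restrictions, and with single libraries left out lay between −0.0168, when SFN-fed cKOAstro replicate 2 was omitted, and 0.35. The SFN diet effect on Aldh7a1 in cKOAstro turned from 0.33 to −0.22 with DESeq2, −0.25 without the 2 libraries or without SFN-fed cKOAstro replicate 2 alone, and −0.23 among numbered libraries without the 2; with single libraries left out it reached 0.43 at most. Over both genotypes it turned from 0.09 to −0.19 with limma-voom, −0.0383 with the replicate block, −0.18 without the 2 libraries and −0.14 with both restrictions. The Aldh7a1 interaction turned from 0.61 to −0.19 and −0.17 under these exclusions, and Crym in cKOAstro with diet from −0.53 to 0.23 with limma-voom. Other differences close to 0 turned too: on the control diet those of Aadat in 7 of 20 settings, Dhtkd1 and Gcdh in 5 each and Dlst in 1, on the SFN diet Slc25a21 in 5 of 22, and with diet in ConAstro Pipox in 11 of 19. In all, 5 of the 8 genes other than Aldh7a1 turned in at least 1 setting on the control diet, 2 on the SFN diet, 1 and 2 with diet in ConAstro and cKOAstro, 4 in SFN-fed cKOAstro against ConAstro, 1 each in the interaction and genotype over both diets, and 6 with diet over both genotypes. Among numbered libraries 0 pairs of gene and marker list were called, with Gcdh against precursor markers at −0.64. By longest transcript the mean level over 23 libraries was 18.3 CPM per kilobase for Gcdh, 39.4 for Dlst and 1.47 for Slc25a21, against 14.4, 13.3 and 0.789 by all exons. Samples with the same replicate number in different groups shared only a number: their deviations correlated between −0.32 and 0.49 over 29 pairs (median 0.016), and 1 of 23 libraries was closest to its own number. Limits: SFN comparisons rest on 2 libraries with doubtful labels, and Aadat on few counts.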
